A study of Mus musculus with 7 samples.

Results

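The nuclear-encoded subunits of respiratory complex III, complex IV and the mitochondrial ATP synthase were examined in the mammary glands of PRA transgenic and wild-type mice. Members were the probes on the array whose gene name starts with Uqcr, with Cox followed by 4 to 8 and a, b or c, or with Atp5, together with Cyc1 and Cycs. This gave 66 of 56605 probes, for 42 of 37074 gene names: 9 of complex III, 15 of complex IV, 17 with an ATP synthase name, and Cycs, which encodes cytochrome c. The name rule does not reach Cox4i1 and Cox4i2 of complex IV, and it takes in Cox7a2l, a factor of respiratory supercomplexes, and Atp5s and Atp5sl, which RefSeq now names Dmac2l and Dmac2.

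All 7 animals were nulliparous adult FVB females aged 20 to 25 weeks, and the glands were taken at diestrus. Of these, 3 were wild-type, and the 4 PRA transgenic mice carried an added gene for the A form of the progesterone receptor in a binary system, in which GAL-4 made under a murine CMV promoter activates a PR-A transgene behind GAL-4 binding sites. A CMV promoter is not specific to mammary epithelium. From each animal 1 abdominal gland was used after its lymph nodes had been cut out, so that RNA of epithelium, fat, vessels and any adhering tissue was measured together. Each array compared 1 animal (Cy5) with the same Universal Mouse Reference RNA (Cy3), a pool from 11 mouse cell lines, and every value below is the log2 ratio of gland to reference. Arrays are written WT1 to WT3 and PRA1 to PRA4 after the replicate numbers in the labels. The dyes were never swapped, and the 7 arrays shared 1 slide with wild-type in row 1 and PRA transgenics in row 2, which means that genotype cannot be told apart from position on the slide. Probes well above background made up 62.7% to 66.2% of the Cy5 channel on wild-type arrays and 56.6% to 60.2% on PRA transgenic arrays, and no spot was saturated. Markers of the tissue were present, since all 12 luminal epithelial and all 12 white adipocyte markers were measured well enough to be tested.

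Complex III passes electrons from ubiquinol to cytochrome c, a small soluble carrier, and complex IV passes them from cytochrome c to oxygen. Both pump protons across the inner mitochondrial membrane, and ATP synthase lets the protons flow back through a rotating ring while its head makes ATP. Most subunits are the same in every tissue, but complex IV has exchangeable isoforms: Cox6a2, Cox7a1 and Cox8b belong to striated muscle, with Cox7a1 and Cox8b also abundant in brown fat, while Cox6a1, Cox7a2 and Cox8a are the forms used in most other cells.

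The isoform genes also differ in the sequence before their start sites. RefSeq promoter windows of GRCm38.p6, 300 bases long with 250 before the start and 50 after it, were found for 34 of the 42 genes, in 38 windows. Cox6a2 had no window. The windows of 5 isoform genes that are compared below are shown, though that comparison did not use them. They are chr5:115348909-115349208 for Cox6a1, chr7:30183921-30184220 for Cox7a1, chr9:79759804-79760103 for Cox7a2, chr19:7217567-7217866 for Cox8a and chr7:140900397-140900696 for Cox8b, with Cox7a1 on the plus strand and the others on the minus strand. Capitals mark matches, on either strand, to GCGCA and GCGC with any base between them (a pattern of nuclear respiratory factor NRF1), CCGGAAG (ETS factors), CAGCTG (an E-box of the kind bound by muscle factors) and TATAAA. Matches of different patterns did not overlap in these windows.
Cox6a1: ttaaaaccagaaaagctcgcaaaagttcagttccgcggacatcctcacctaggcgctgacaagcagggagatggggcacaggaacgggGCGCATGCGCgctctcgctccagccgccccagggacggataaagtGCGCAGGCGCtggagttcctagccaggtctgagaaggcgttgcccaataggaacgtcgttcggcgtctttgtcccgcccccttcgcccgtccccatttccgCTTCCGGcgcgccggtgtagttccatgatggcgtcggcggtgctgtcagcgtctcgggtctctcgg
Cox8a: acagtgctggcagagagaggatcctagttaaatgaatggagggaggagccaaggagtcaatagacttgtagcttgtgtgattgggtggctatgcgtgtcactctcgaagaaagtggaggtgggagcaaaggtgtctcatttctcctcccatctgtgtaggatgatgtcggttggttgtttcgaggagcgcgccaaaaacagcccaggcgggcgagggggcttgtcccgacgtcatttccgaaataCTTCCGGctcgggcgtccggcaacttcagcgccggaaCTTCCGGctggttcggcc
Cox7a2: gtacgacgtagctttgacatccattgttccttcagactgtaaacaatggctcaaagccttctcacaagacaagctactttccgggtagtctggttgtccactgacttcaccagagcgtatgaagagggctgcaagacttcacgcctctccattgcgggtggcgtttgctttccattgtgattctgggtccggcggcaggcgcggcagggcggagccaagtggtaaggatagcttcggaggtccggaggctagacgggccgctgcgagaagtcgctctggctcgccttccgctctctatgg
Cox7a1: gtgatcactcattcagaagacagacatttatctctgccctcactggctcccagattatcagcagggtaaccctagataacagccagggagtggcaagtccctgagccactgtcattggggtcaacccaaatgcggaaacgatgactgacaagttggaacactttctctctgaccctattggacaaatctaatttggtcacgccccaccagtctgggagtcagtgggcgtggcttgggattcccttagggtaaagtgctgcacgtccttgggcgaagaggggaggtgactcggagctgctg
Cox8b: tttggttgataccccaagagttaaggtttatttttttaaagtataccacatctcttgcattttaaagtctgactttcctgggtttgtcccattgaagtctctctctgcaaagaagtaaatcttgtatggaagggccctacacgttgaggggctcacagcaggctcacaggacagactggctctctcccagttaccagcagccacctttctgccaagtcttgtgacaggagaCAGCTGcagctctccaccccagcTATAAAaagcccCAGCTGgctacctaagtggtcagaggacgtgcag
The window of Cox6a1 held 32 CpG dinucleotides and matches to the NRF1 and ETS patterns, and that of Cox8a held 19 CpG and 2 matches to the ETS pattern. The window of Cox8b held 2 CpG, the lowest number among the member windows, and had 2 matches to CAGCTG and 1 to TATAAA. Cox7a1 had 7 CpG and Cox7a2 had 20, and neither had a match to any of the 4 patterns. Across members the median was 19 CpG per window, against 7 over all 32851 mouse windows. The NRF1 pattern was found in 8 of 38 member windows (21.1%, against 4.60% of all windows), among them those of Uqcrc1, a core subunit of complex III, and Atp5o, a stalk subunit of ATP synthase. CCGGAAG was found in 10 member windows (26.3%, against 8.86%), among them those of Uqcrh, Cox6b1 and Atp5j. CAGCTG was found in 2 (5.26%, against 16.3%), those of Cox8b and Atp5b, and TATAAA in 3 (7.89%, against 13.6%). These are matches of letters only. The comparison with all windows was not matched for CpG, which the NRF1 and ETS patterns contain and CAGCTG and TATAAA do not.

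Between the genotypes the genes of these complexes differed little. Of the 42 genes, 40 were tested with 61 probes, a probe being tested where its Cy5 signal stood well above background in every wild-type or every PRA transgenic array. Cox7b2 and Cox8c, isoforms known from testis, were not: Cy5 was well above background on 1 of 7 arrays for Cox7b2 and on none for Cox8c. No member probe passed an adjusted p of 0.05 in limma (lowest adjusted p = 0.42), where 0.0117% of all 34284 probes tested did. At an unadjusted p under 0.05, 2 member probes were higher in PRA transgenics, against 4.54% of all probes, and none was lower, against 4.48% (9.02% of all probes in either direction), so that the members' share did not exceed that of all probes. The 2 were the probe of Cox6b2 and 1 of the probes of Atp5a1. The genotypes did not overlap for 3 member probes that were higher in PRA transgenics, against 5.41% of all probes, namely those 2 and 1 probe of Atp5g1, and for none that was lower, against 4.52%.

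The fold changes were small and lay mostly on 1 side. Taking the brightest probe for each gene, 32 of 40 log2 fold changes were above 0 and 8 below, while 54.2% of all probes tested were above 0. Most of these genes varied together among the animals, as described below, so they are not 40 independent observations. The median was 0.12 over all members, 0.12 over complex III, 0.08 over complex IV and 0.09 over ATP synthase, and 0.02 over all probes. Without Atp5s, Atp5sl and Cox7a2l it was 0.11 over complex IV and 0.12 over ATP synthase, so that the complexes were nearly level. When the array PRA1 was left out, the median over all members was 0.0060. No gene had tested probes whose log2 fold changes differed by more than 1. The widest range was 0.31, among the 3 probes of Atp5b, the catalytic beta subunit of the ATP synthase head.

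**Figure D1:**
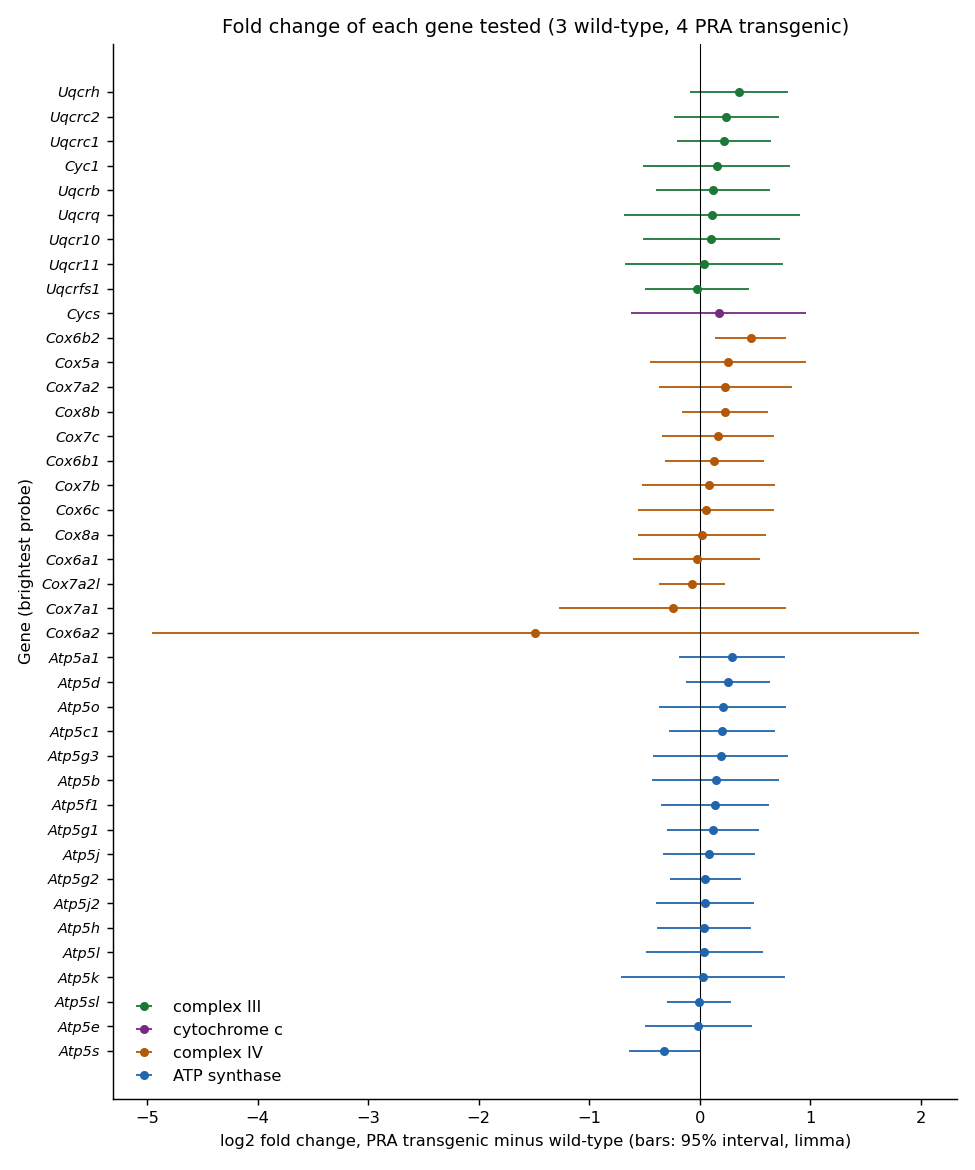
Log2 fold change of PRA transgenic over wild-type glands for the 40 genes tested (brightest probe of each, points) with limma's 95% confidence interval (bars), coloured by complex. The interval of Cox6b2 lies above 0, that of Cox6a2 reaches from -4.96 to 1.99, and all others include 0.

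In complex III, Uqcrh, which encodes the hinge subunit that helps cytochrome c dock, had the highest log2 fold change and Uqcrfs1, the Rieske iron-sulfur protein, the lowest. Uqcrh read 1.03, 0.83 and 0.85 in WT1 to WT3 and 1.61, 1.06, 1.44 and 0.94 in PRA1 to PRA4. PRA4 lay among the wild-type arrays and the other PRA transgenic arrays above them, and the log2 fold change was 0.36 (SE 0.19, adjusted p = 0.63). Uqcrfs1 read 1.02, 0.96 and 1.34 in wild-type and 1.31, 1.00, 1.36 and 0.69 in PRA transgenics. The genotypes overlapped and the lowest value was that of PRA4, with a log2 fold change of -0.02 (SE 0.20, adjusted p = 0.99). The other 7 genes of complex III lay between these, from 0.04 for the small subunit Uqcr11 to 0.24 for the core subunit Uqcrc2.

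Cytochrome c itself varied widely among the PRA transgenic animals. Cycs read 0.99, 1.04 and 1.15 in wild-type glands and 1.75, 1.09, 1.71 and 0.37 in PRA1 to PRA4. PRA1 and PRA3 were above every wild-type gland, PRA2 was among them and PRA4 was below them all. The mean was 1.06 ± 0.09 for wild-type (SD, n = 3) against 1.23 ± 0.65 for PRA transgenics (SD, n = 4), with a log2 fold change of 0.17 (SE 0.34, adjusted p = 0.92).

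In complex IV the extremes were both isoforms of restricted expression. Cox6b2, the testis form of a subunit that faces the intermembrane space, read 1.18, 0.87 and 0.82 in wild-type and 1.51, 1.31, 1.35 and 1.52 in PRA transgenic glands. All 4 PRA transgenic arrays were above all 3 wild-type arrays, PRA4 included, and the log2 fold change was 0.46 (SE 0.14, unadjusted p = 0.011, adjusted p = 0.42). It was smaller after normexp background correction and loess, at 0.28, and in Cy5 alone, at 0.30. The probe was dim for a member, with a mean log2 Cy5 signal of 7.71, where the median over the members was 14.5. Its probe lies at chr7:4703488-4703547 of mm9. The form found in most tissues, Cox6b1, had a log2 fold change of 0.13 (SE 0.19, adjusted p = 0.88), and Cox7a2l one of -0.07 (SE 0.13, adjusted p = 0.92). Cox6a2 was the lowest and is described with the isoforms below.

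Among the ATP synthase names the highest was Atp5a1, the alpha subunit of the head, and the lowest Atp5s. The brightest probe of Atp5a1 read 1.40, 1.55 and 1.49 in wild-type and 2.14, 1.60, 2.00 and 1.36 in PRA transgenics. PRA4 was below every wild-type gland and the other 3 were above them, and the log2 fold change was 0.29 (SE 0.20, adjusted p = 0.72). A dimmer probe of Atp5a1 read 0.48, 0.39 and 0.45 in wild-type and 0.95, 0.97, 1.39 and 0.52 in PRA transgenics, without overlap, and gave 0.52 (SE 0.20, unadjusted p = 0.037, adjusted p = 0.52). The probe of Atp5g1, a gene for the ring that turns in the membrane, that did not overlap read -0.91, -0.96 and -1.09 in wild-type and -0.74, -0.77, -0.79 and -0.43 in PRA transgenics. Here PRA4 was the highest array, and the log2 fold change was 0.31 (SE 0.13, adjusted p = 0.56), while the brightest probe of the same gene gave 0.12. Atp5s read -0.55, -0.44 and -0.41 in wild-type and -0.52, -0.95, -0.83 and -0.85 in PRA transgenics. All but PRA1 were below the wild-type arrays, with a log2 fold change of -0.32 (SE 0.14, unadjusted p = 0.052, adjusted p = 0.56).

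Most of these genes varied together among the PRA transgenic animals. The highest of the 7 arrays was PRA1 for 24 genes and PRA3 for 9, together 33 of 40, whereas PRA1 or PRA3 was highest for 33.5% of all probes tested. The lowest array was PRA4 for 31 of 40 genes, against 15.9% of all probes. In complex III PRA1 or PRA3 was highest for all 9 genes and PRA4 lowest for 8, in complex IV for 9 and 9 of 13, and among the ATP synthase names for 14 and 13 of 17. No test was made of these counts, and the arrays named were read from the same values.

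**Figure D2:**
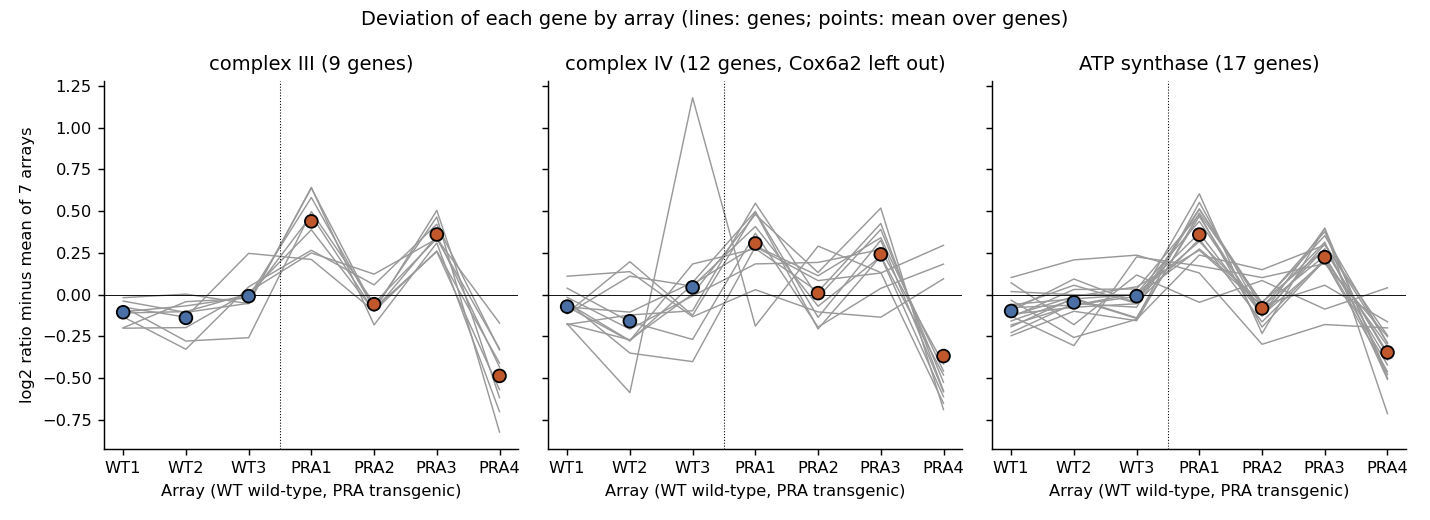
Log2 ratio of each gene in each array minus its mean over the 7 arrays (lines), with the mean over the genes of each complex (points, blue for wild-type and orange for PRA transgenic). Cox6a2 is left out for its range. Complex III averaged 0.44 in PRA1, 0.36 in PRA3 and -0.49 in PRA4, and the line that peaks in WT3 in the middle panel is Cox7a1.

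Over the same genes the values of the PRA transgenic animals were more spread out. The SD of the log2 ratio was larger over the 4 PRA transgenic arrays than over the 3 wild-type arrays for 34 of 40 genes, against 53.6% of all probes. Its median over the members was 0.0967 in wild-type and 0.366 in PRA transgenics, and the median ratio of the SDs was 3.92, against 1.06 over all probes. Atp5b, for example, read 1.02, 1.06 and 1.09 in wild-type glands and 1.65, 1.07, 1.45 and 0.63 in PRA1 to PRA4. Its wild-type values lay close together, with PRA1 and PRA3 above them and PRA4 below. The exceptions, with a larger SD in wild-type, were Cox6a2, Cox7a1, Cox6b2, Cox7a2l, Atp5sl and Atp5g1. Since most of these genes varied together, the counts are not independent. They rest on 3 animals against 4, and no test was made of the spread.

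**Figure D3:**
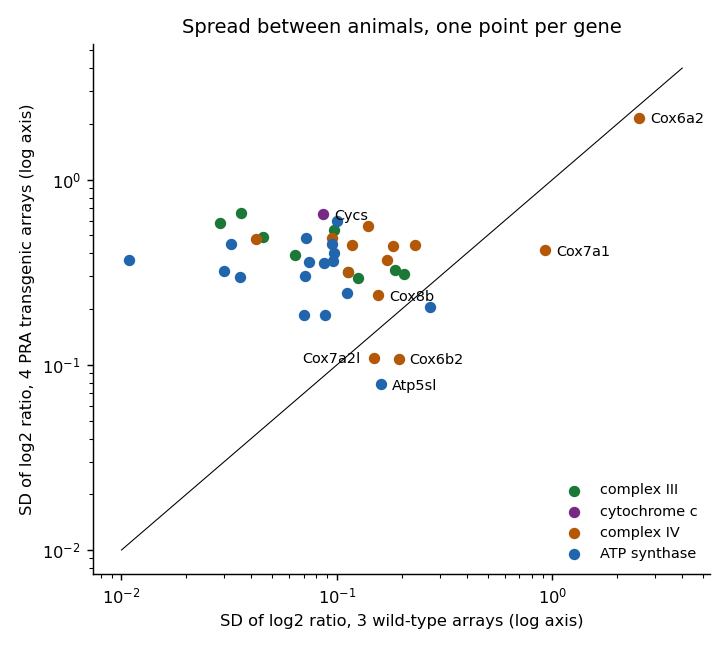
SD of the log2 ratio over the 3 wild-type arrays (horizontal, log axis) and over the 4 PRA transgenic arrays (vertical, log axis), one point for each of the 40 genes, coloured by complex. The line marks equal SD, and 34 genes lie above it.

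The likeness of the genes to each other was described by correlation. With the 3 muscle and brown fat isoforms, Cox6b2, Cox7a2l, Atp5s and Atp5sl set aside, a choice made after the values were seen, 33 genes remained. Each was set against the mean of the others over the 7 arrays, which share animal, labelling and hybridization. Pearson's r had a median of 0.95, its lowest value was 0.71 for Atp5g1, and it was at least 0.9 for 24 of the 33, whereas 1.68% of all probes tested (575) reached 0.9 against the mean of the 33. Cycs had an r of 0.996, Uqcrb of complex III 0.995 and Atp5j of ATP synthase 0.995. Since the 33 were chosen by sight and set against their own mean, high values among them and lower ones among the 7 set aside follow in part from the choice: r was 0.28 for Cox7a1, 0.27 for Cox8b, 0.18 for Atp5s, 0.13 for Cox6b2, -0.33 for Atp5sl, -0.44 for Cox7a2l and -0.61 for Cox6a2. These correlations are descriptive, over 7 arrays.

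The course of the 33 genes was read in each channel and scaling. Their mean deviation in PRA1 to PRA4 was 0.42, -0.05, 0.32 and -0.46 for the log2 ratio and 0.44, -0.07, 0.31 and -0.48 after normexp background correction and loess. In Cy5 alone it was 0.34, -0.03, 0.27 and -0.38. In Cy3 alone, where the same reference RNA was on every array, it was -0.07, 0.03, -0.05 and 0.09, of opposite sign and smaller. Since these are bright probes, the 1665 other probes with a mean log2 Cy5 signal of at least 13 were set beside them. Their median deviation of the log2 ratio was 0.14, -0.05, 0.03 and -0.03 in PRA1 to PRA4, so that bright probes as a whole were also up in PRA1, by less, and showed little of the rise in PRA3 and of the fall in PRA4. The part of labelling and hybridization in this course was not tested.

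**Figure D4:**
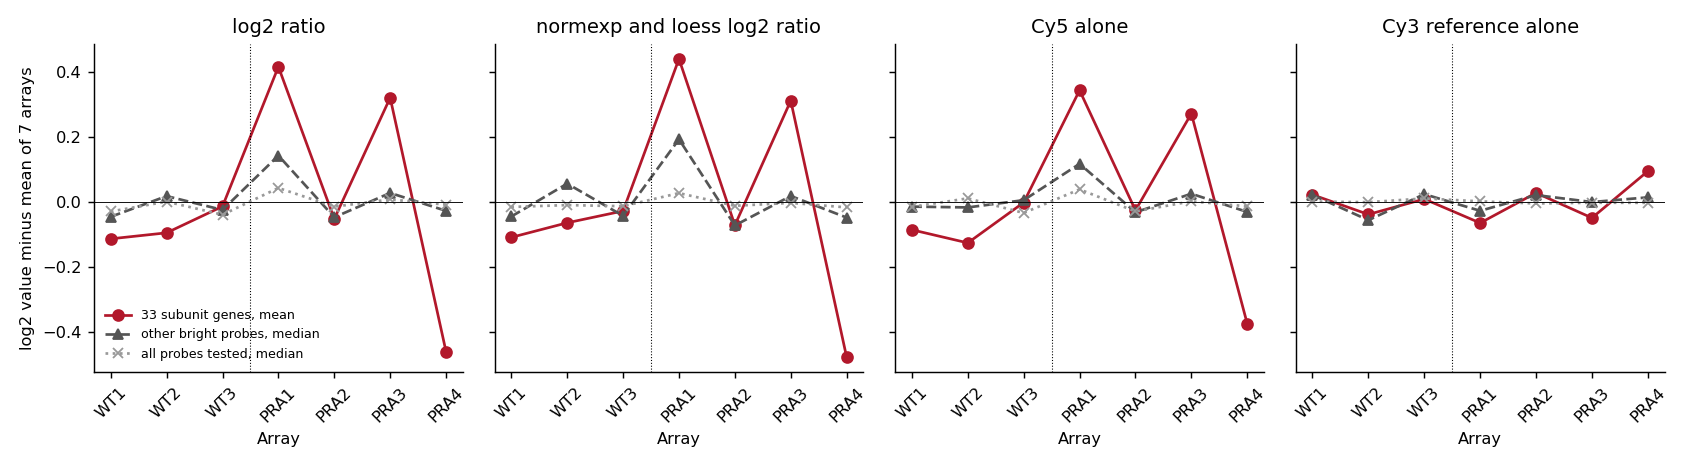
Deviation from the mean of the 7 arrays (log2 scale) for the mean of the 33 subunit genes (circles), the median of 1665 other bright probes (triangles) and the median of all 34284 probes tested (crosses), in 4 readouts. The subunit genes peak in PRA1 and PRA3 and are lowest in PRA4 in the first 3 readouts, and stay between -0.07 and 0.09 in the reference channel.

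Complexes I and II and many assembly factors had the same high and low arrays. Complex I, which feeds electrons into the chain from NADH, had all 37 listed subunits tested, none of which passed an adjusted or an unadjusted p of 0.05. Its mean log2 ratio was 0.90, 0.99 and 0.97 in WT1 to WT3 and 1.38, 0.92, 1.28 and 0.61 in PRA1 to PRA4, PRA1 or PRA3 was the highest array for 35 of the 37 and PRA4 the lowest for 32. The median log2 fold change was 0.08, from -0.32 for Ndufa4 (SE 0.26, adjusted p = 0.77), listed here by its name but found with complex IV, to 0.42 for Ndufa11 (SE 0.21, adjusted p = 0.61). The 4 subunits of complex II, succinate dehydrogenase, all had PRA1 or PRA3 highest and PRA4 lowest, with a median of 0.06, from -0.03 for Sdhd to 0.18 for Sdhb, and none passed an unadjusted p of 0.05. Of 28 assembly factors of complexes III, IV and ATP synthase, 26 were tested, PRA1 or PRA3 was highest for 21 and PRA4 lowest for 16. None passed an unadjusted p of 0.05, the median was 0.04, and the values ran from -0.23 for Tmem70, an ATP synthase assembly factor, to 0.28 for Cox20, which assists an early step of complex IV assembly. Tmem70 read 0.34, 0.32 and 0.47 in wild-type and 0.26, 0.21, 0.27 and -0.14 in PRA transgenics, without overlap (SE 0.14, adjusted p = 0.69). Of the 26 factors 1 was thus lower without overlap, against 4.52% of all probes. Among Cox4i1, Cox4i2, Atpif1 and Usmg5, subunits and an inhibitor outside the name rule, none passed an unadjusted p of 0.05, and the values ran from -0.0019 for Cox4i1 to 0.08 for Usmg5.

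Known regulators of mitochondrial gene transcription were considered as a list of 11, all tested. Their median log2 fold change was -0.07, PRA1 or PRA3 was highest for 4 and PRA4 lowest for 4, none passed the adjusted threshold, and 1 passed an unadjusted p of 0.05, against 9.02% of all probes, a share near that background. This was Ppargc1b, a coactivator of mitochondrial genes, which read 0.34, -0.04 and 0.34 in wild-type and 0.91, 0.77, 0.91 and 0.44 in PRA1 to PRA4. All PRA transgenic arrays were above the wild-type arrays, PRA4 least, with a log2 fold change of 0.54 (SE 0.17, unadjusted p = 0.015, adjusted p = 0.45). In Gabpa, the DNA-binding part of an ETS factor of mitochondrial genes, the genotypes were also apart, but PRA transgenics were lower: it read -0.33, -0.20 and -0.22 in wild-type and -0.43, -0.56, -0.58 and -0.38 in PRA1 to PRA4, with a log2 fold change of -0.23 (SE 0.11, adjusted p = 0.60). Yy1, a zinc finger transcription factor, was lower on every PRA transgenic array as well, at 0.15, 0.09 and 0.17 in wild-type and 0.04, 0.05, 0.06 and 0.01 in PRA transgenics, with a log2 fold change of -0.10 (SE 0.10, adjusted p = 0.82). Of the 11 regulators 1 was thus higher without overlap, against 5.41% of all probes, and 2 were lower, against 4.52%. Tfb2m, a mitochondrial transcription factor, had the lowest value at -0.25 (SE 0.14, adjusted p = 0.66).

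The counts and medians depended on single PRA transgenic arrays, and the count of probes moved most with PRA4. Without it, 15 of 61 member probes were higher in PRA transgenics at an unadjusted p under 0.05, against 6.92% of all probes, and they belonged to 13 genes of all 3 complexes and Cycs. No probe passed the adjusted threshold (lowest adjusted p = 0.28). PRA4 was already the lowest array for 31 of 40 genes, so that leaving it out raises their fold changes, and the probes vary together. The excess over all probes follows in part from that and was not tested. The median log2 fold change over the members was then 0.28, against 0.03 over all probes, and 35 of 40 genes were above 0. In the opposite direction, the median over the members fell from 0.12 to 0.0060 without PRA1 and to 0.022 without PRA3, and that of complex IV fell to -0.031 without PRA3. Among the 15 were both probes of Atp5a1 named above, at 0.66 and 0.43, Cox5a at 0.52, Uqcrh at 0.46 and Cox7a2 at 0.44. PRA4 is 1 of 4 animals of its genotype, and no label sets it apart. In the alternative fit with array weights, PRA4 had the lowest weight of the 7 arrays (0.63) and PRA1 the next lowest (0.76). PRA3 had the highest (1.75).

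The complexes differed from each other in their genotype difference by less than the SD among PRA transgenic arrays. For each array the deviations were averaged over the genes of a complex and the difference between complexes was taken. Complex III minus ATP synthase was -0.03 ± 0.05 for wild-type (SD, n = 3) and 0.02 ± 0.12 for PRA transgenics (SD, n = 4), a difference between genotypes of 0.06. Complex III minus complex IV was -0.09 ± 0.22 and 0.07 ± 0.30, a difference of 0.16, and complex IV minus ATP synthase was 0.06 ± 0.27 and -0.04 ± 0.18, a difference of -0.10 that became 0.024 without WT3 and -0.25 without WT2. Complex III minus complex IV became 0.051 without WT3 and 0.30 without PRA4, and complex III minus ATP synthase ranged from 0.021 without PRA3 to 0.11 without PRA4. These wider spreads came with the muscle and brown fat isoforms. Without Cox6a2, Cox7a1 and Cox8b the differences were 0.02 for complex III minus complex IV and 0.04 for complex IV minus ATP synthase, and complex IV then had deviations of -0.07, -0.12 and -0.04 in wild-type and 0.35, 0.00, 0.27 and -0.39 in PRA1 to PRA4. By array these were close to those of complex III (-0.11, -0.14 and -0.01, then 0.44, -0.06, 0.36 and -0.49) and of ATP synthase (-0.10, -0.05 and -0.01, then 0.36, -0.08, 0.22 and -0.35). With Atp5s, Atp5sl and Cox7a2l left out instead, the genotype difference was 0.02 for complex III minus ATP synthase. It was then 0.16 for complex III minus complex IV and -0.13 for complex IV minus ATP synthase.

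The muscle isoform Cox6a2 ranged more widely than any other member, within both genotypes. Its probe (chr7:135349160-135349219 of mm9) read -2.14, -4.52 and 0.53 in WT1 to WT3 and -4.69, -4.49, -4.64 and -0.30 in PRA1 to PRA4. WT1, WT3 and PRA4 were high and the other 4 arrays lay between -4.69 and -4.49, so that both genotypes held high and low arrays. The log2 fold change was -1.49 (SE 1.48, adjusted p = 0.82). Its partner Cox6a1 read 1.09, 1.31 and 1.25 in wild-type and 1.61, 1.13, 1.43 and 0.59 in PRA transgenics, with a course near that of most subunits and a log2 fold change of -0.03 (SE 0.25, adjusted p = 0.99). The genotype difference of Cox6a2 minus Cox6a1 was -1.46 (two-sided exact permutation test, p = 0.49, adjusted over the 3 isoform pairs p = 0.51), where 3 arrays against 4 allow no p below 0.029. With 1 array left out it ranged from -2.75 without WT2 to -0.19 without WT3, and it was -2.74 without PRA4.

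The skeletal muscle list had the same high arrays. Of its 26 genes 22 were tested, and their mean log2 ratio was 1.82, -0.19 and 2.70 in WT1 to WT3 and -0.09, -0.26, -0.12 and 2.53 in PRA1 to PRA4. WT1, WT3 and PRA4 were high in this mean, as for Cox6a2, and the list ranged over both genotypes. WT3 was the highest array for 14 of the 22 genes and PRA4 for 4. Not every gene followed: Mb was highest in PRA2, Myh4 in PRA3 and Ryr1 in PRA1. Tnnt3, a fast muscle troponin picked after its values were seen, read 2.73, -1.51 and 4.24 in wild-type and -1.35, -1.88, -1.59 and 3.41 in PRA transgenics. Ckm, Ckmt2, Mybpc2 and Neb did not pass the filter on dim probes. The part of muscle RNA in the values of Cox6a2 was not tested. As the arrays fall into 2 clusters, no correlation is given. In RNA of a whole gland a change in the number of cells of a type and a change in RNA per cell cannot be told apart.

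Cox7a1 had a course of its own. Its probe (chr7:30970337-30970948 of mm9) read 1.28, 0.87 and 2.63 in wild-type and 1.27, 1.75, 1.59 and 0.80 in PRA transgenics. WT3 stood above the rest, PRA4 was lowest and the genotypes overlapped, with a log2 fold change of -0.24 (SE 0.44, adjusted p = 0.92). Cox7a2 read 1.06, 1.12 and 1.14 in wild-type and 1.78, 1.22, 1.63 and 0.71 in PRA transgenics, near the course of most subunits, with a log2 fold change of 0.23 (SE 0.26, adjusted p = 0.84). The genotype difference of Cox7a1 minus Cox7a2 was -0.47 (two-sided exact permutation test, p = 0.49, adjusted p = 0.51), and it turned to 0.03 without WT3. The arrays highest for Cox7a1, WT3 and PRA2, were also highest for Mb of the skeletal muscle list. Mb read 4.80 and 4.83 there, against 2.24 to 3.38 on the other arrays. Fabp3, a fatty acid binding protein of muscle and brown fat, was highest in WT3 (4.23) and next in PRA2 (0.57). The other arrays of Fabp3 read -3.89 to -0.40. It was picked after its values were seen, from the brown adipocyte list, in which WT3 was the highest array for 4 of the 10 genes tested, while Ucp1 and Cidea were highest in PRA3 and Dio2 in WT1.

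Cox8b varied little between animals. The probe (chr7:148084852-148084911 of mm9) read 6.98, 6.78 and 6.67 in wild-type and 7.31, 6.75, 6.98 and 7.13 in PRA transgenics. The genotypes overlapped, WT3 and PRA4 with their high muscle markers were not set apart, and the log2 fold change was 0.23 (95% confidence interval -0.16 to 0.62, adjusted p = 0.73). The large ratio rests on a dim reference, with a mean log2 signal of 6.38 in Cy3 and 13.3 in Cy5. Cox8a read 1.11, 1.42 and 1.10 in wild-type and 1.72, 1.02, 1.45 and 0.74 in PRA transgenics, with a log2 fold change of 0.02 (SE 0.25, adjusted p = 0.99), and Cox8b minus Cox8a differed between genotypes by 0.21 (two-sided exact permutation test, p = 0.51, adjusted p = 0.51).

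**Figure D5:**
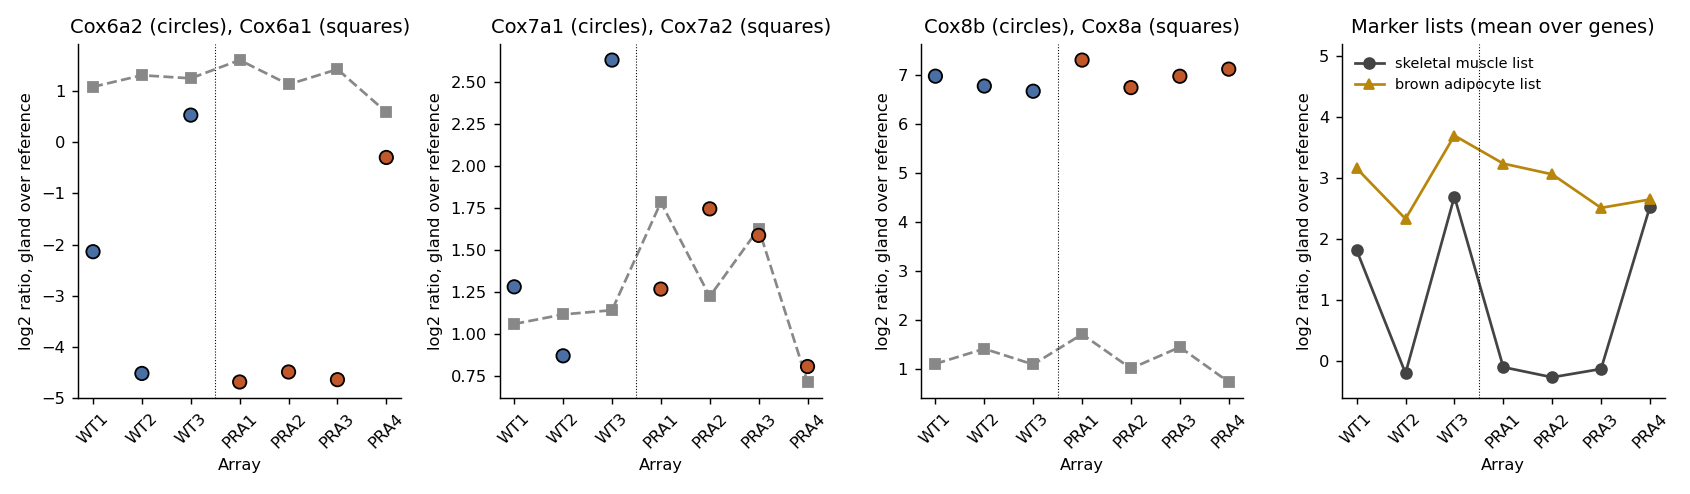
Log2 ratio of gland to reference by array for each muscle or brown fat isoform (circles, blue for wild-type and orange for PRA transgenic) and its partner (squares), and the mean over the skeletal muscle and brown adipocyte marker lists. The vertical axes differ between panels. Cox6a2 and the muscle list are both high in WT1, WT3 and PRA4, while Cox8b stays between 6.67 and 7.31.

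Markers of brown fat were present in every gland. Of 12 brown adipocyte genes 10 were tested, Elovl3 and Zic1 not. Their mean log2 ratio ranged from 2.34 to 3.70 in wild-type and from 2.52 to 3.24 in PRA transgenics. This mean leans on Fabp3, which had the widest range of the 10, from -3.89 to 4.23. Ucp1, the uncoupling protein that defines brown fat, read 5.57, 4.67 and 5.41 in wild-type and 5.76, 5.59, 5.77 and 4.90 in PRA transgenics. It was lowest in WT2 and PRA4 and overlapped between genotypes. Cox8b overlapped too, but its lowest value was in WT3 (6.67), and it read 7.13 in PRA4. The log2 fold change of Ucp1 was 0.29 (SE 0.30, adjusted p = 0.82). In the same list Kcnk3 was higher, at 0.91, and Prdm16 and Slc27a2 lower, at -0.75 and -1.75, each at an unadjusted p under 0.05, which 4.54% of all probes passed as higher and 4.48% as lower, and none at the adjusted threshold.

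The other cell type lists were set beside the course of the 33 subunit genes. The white adipocyte list had a mean log2 ratio of 5.74, 5.86 and 5.52 in wild-type and 6.20, 5.52, 5.75 and 5.77 in PRA1 to PRA4. It was highest in PRA1, like the subunits, and PRA1 or PRA3 was highest for 10 of its 12 genes, but the means of PRA3 and PRA4 were level. The mean log2 ratio of the macrophage list, with all 8 genes tested, ran opposite to the subunits among the PRA transgenic arrays. It was 2.31, 2.35 and 2.07 in wild-type and 1.94, 2.24, 2.00 and 2.78 in PRA1 to PRA4. PRA4, where the subunits were lowest, was the highest array for 6 of the 8 genes, and PRA1 or PRA3, where the subunits were highest, was the lowest for 5. The shares of all probes for these counts were not computed. Cd163 went the other way, at 5.57, 5.15, 5.10 and 4.89 in PRA1 to PRA4, and Mrc1 was highest in PRA2. The luminal epithelial list ranged from 3.28 to 4.06 in wild-type and from 3.04 to 4.03 in PRA transgenics and was lowest in PRA3, where the subunits were high. The skeletal muscle list was high in PRA4, where the subunits were lowest, but also in WT1 and WT3, where their mean deviations were -0.11 and -0.01. The means ranged from 2.62 to 3.07 for basal epithelium and from 4.88 to 5.30 for endothelium over the 7 arrays, and the T cell and B cell lists were highest in WT1, at 1.50 and 0.23. The part of cell composition in the course of the subunits was not tested.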

How the data were processed

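RNA of mammary glands from 3 wild-type and 4 PRA transgenic mice was hybridized with a common reference on 2-color Agilent arrays, 1 animal per array. The authors deposited, for each array, the processed intensity of each spot, background-subtracted and dye-normalized by Agilent Feature Extraction 12.0 (submitters' processing notes). A series table with log2 values was deposited too, of which 99.9% of values were within 0.001 of the log2 ratios computed here after centering each probe on the median of the 7 arrays. The direction is Cy5 (gland) over Cy3 (reference) per the labels.

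Control and outlier spots were left out, log2(Cy5/Cy3) was computed, spots of a probe were averaged, and a probe was kept if its Cy5 signal stood well above background in every wild-type or every PRA transgenic array (34284 of 56605). Genotypes were compared over these with lmFit and eBayes of limma 3.58.1 (R 4.3.3) with Benjamini-Hochberg adjustment, after the steps had been tested on simulated data. The number of arrays limits the precision. Isoform pairs were compared by exact permutation over the 35 splits of the arrays. No test was made on a mean over members. One probe stood for a gene, the brightest in Cy5. Of the 66 member probes 55 matched RefSeq (GRCm38.p6) through an accession, 10 through the symbol and 1 through a former symbol, while 1 probe with a name ending in -ps was left out. Positions of probes are those of the files (mm9), promoter sequences those of RefSeq. Of the 42 genes 8 had no window in the table used (Atp5a1, Cox6a2, Cox6c, Cox8c, Cyc1, Uqcrb, Uqcrc2 and Uqcrq).

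Genes given with values in every array are the 3 isoforms and their partners, the highest and lowest log2 fold change in each complex, Cycs and genes whose genotypes do not overlap, and in each pathway list the highest and lowest are named. Tnnt3, Fabp3, Ucp1 and Atp5b, among others, were named after their values were seen. The members, the lists and these rules were chosen with earlier results of these data known. Alternatives were normexp (offset 50) with loess, the series table, Cy5 alone (minus each array's percentile 75), quantile normalization, no filter, a filter on both channels, the methods' t-test, array weights, a replicate block, leaving out single arrays, and other choices of probe or members.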

Additional observations from a re-analysis of the deposited data

Results flagged for a closer look

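In each genotype of 4 arrays the highest or lowest value was compared with its nearest neighbour, as a share of the range, and called outlying above Dixon's 95% critical value for 4 values. Of 32 such groups 4 were, where chance gives about 1 in 20 groups, or 1.6. In 3 of them PRA4 was the outlying array: Cox6a2 (0.955), Cox6a2 minus Cox6a1 (0.876) and the skeletal muscle list (0.941), in each case higher than PRA1, PRA2 and PRA3. These 3 share their arrays, and the first 2 share a gene. WT3 was high too, at 0.53 for Cox6a2 and 2.70 for the skeletal muscle list. The endothelium list was low in PRA2 (0.88), with a mean log2 ratio of 4.88 against 5.25 to 5.30 in the other PRA transgenic arrays.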

How the results depend on the processing

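Of the values recomputed under the alternatives 395 stayed on their side of the threshold without a change of sign in a tested value, or moved by less than the spread, 25 moved by more and 18 tested values changed sign. Among values with no test, the median of complex IV (0.083) was -0.031 without PRA3, and complex IV minus ATP synthase (-0.10) was 0.024 without WT3 and 0.043 without Cox6a2, Cox7a1 and Cox8b. No member probe passed an adjusted p under 0.05 in any alternative. The 2 member probes higher at an unadjusted p under 0.05 became 1 with quantile normalization and 4 with array weights, and ranged from 1 to 15 when 1 array was left out (15 without PRA4, 1 without any of the others except WT3). The count of lower member probes, 0, became 1 with quantile normalization, without a filter, with both channels above background, by the methods' t-test and with array weights, and ranged from 0 to 1 when 1 array was left out. Each change of sign was in a value that had passed no test. Cox8a was -0.0055 and Uqcrfs1 0.024 in Cy5 alone, and with array weights Cox6a1 was 0.064 and Uqcrfs1 0.065. With 1 array left out the ranges were -0.14 to 0.19 for Cox8a, -0.11 to 0.11 for Uqcrfs1, -0.17 to 0.17 for Cox6a1, -0.61 to 0.28 for Cox7a1, -0.84 to 0.027 for Cox7a1 minus Cox7a2 and -0.0018 to 0.46 for Cycs, and, with no change of sign, -2.75 to -0.19 for Cox6a2 minus Cox6a1 and 0.0060 to 0.28 for the median over all members. The causes were not tested.

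The replicate numbers did not pair the arrays: the correlations of deviations between same-numbered wild-type and PRA transgenic arrays were 0.10, -0.30 and 0.04. With the replicate number as a block 9 member probes were higher at an unadjusted p under 0.05, Cox6a1 was 0.17 and Uqcrfs1 0.11. PRA4 has no wild-type partner, so that this fit spends it.

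Over all probes the 4 at an adjusted p under 0.05 became 15 without a filter, 0 with the block, 1 by the methods' t-test and 11 with array weights, and ranged from 1 to 12 when 1 array was left out. Those higher at an unadjusted p under 0.05 ranged from 1162 to 2372, and those lower became 2924 without a filter and 997 with both channels above background.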
